A study of Arabidopsis thaliana with 6 samples.

Results

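The genes of phosphate transport and of the phosphate starvation response were followed in roots of Arabidopsis thaliana, a small laboratory plant. The 38 genes were chosen by identifier from the 32833 in the count files, for known roles in phosphate uptake, export, sensing and salvage. Earlier results of these data were known when they were chosen, and all 38 were present. RNA came from the wild type Col and from a line labelled myb68 myb84, with mutations named after a pair of related R2R3 MYB transcription factor genes, and the study asks how these factors act on suberin deposition and stem cell proliferation in root cork. Plants of both genotypes grew untreated on 1/2 MS plates, a standard nutrient medium, in constant light at 22 °C, and at 18 days RNA was made from a 2 cm segment at the upper end of the main root. Each genotype had 3 biological replicates, each a pool of at least 40 plants. The kind of mutation in each gene is not known here, and the design text writes MYB86 at one point where the sample labels write myb84. No phosphate treatment was part of the design, so the values describe roots on that medium only.

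Plants take up phosphate from the soil through PHT1 carriers in the outer root cell layers, load it into the xylem through PHO1 and store the surplus in the vacuole. When phosphate is scarce, the transcription factor PHR1 is released from SPX proteins and switches on carriers, secreted phosphatases, enzymes that replace phospholipids by galactolipids and sulfolipids, and the microRNA miR399. The miRNA cleaves the transcript of PHO2, a ubiquitin-conjugating enzyme that sends PHO1 and PHT1 proteins to degradation, and the RNAs IPS1 and AT4 blunt this by binding miR399 without being cut.

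The letters behind that last step are shown because PHO2 was among the genes that rose and AT4 had the highest fold change of the tested members. The mature miRNAs below were read from the TAIR10.1 genome at the positions of the RefSeq annotation, written with T for U, with bases 2 to 8, the seed, in capitals. The miR399c-3p sequence was the same as that of miR399b, and the 5 shown share their seed and differ only in their 3′ part.
miR399a: tGCCAAAGgagatttgccctg
miR399b: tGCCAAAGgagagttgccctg
miR399d: tGCCAAAGgagatttgccccg
miR399e: tGCCAAAGgagatttgcctcg
miR399f: tGCCAAAGgagatttgcccgg

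A search for complementary sites found 5 in the annotated 5′ UTR of the PHO2 transcript (chromosome 2, minus strand), each written 5′ to 3′ on the transcript with the bases opposite the seed in capitals. All 5 match the seed without a mismatch and differ among themselves outside it.
PHO2 site at chr2:14282106-14282126: tagggcaaatcttCTTTGGCa
PHO2 site at chr2:14281973-14281993: tagggcatatctcCTTTGGCa
PHO2 site at chr2:14281884-14281904: ttgggcaaatctcCTTTGGCa
PHO2 site at chr2:14281827-14281847: tcgagcaaatctcCTTTGGCa
PHO2 site at chr2:14281770-14281790: tagagcaaatctcCTTTGGCa

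AT4 and IPS1 each held 1 site, found only when 3 unpaired bases were allowed opposite the junction of miRNA bases 10 and 11. Those 3 bases, the bulge that is known to stop cleavage, are in capitals. Outside the bulge the sites of the 2 RNAs are letter for letter the same.
AT4 site at chr5:895149-895172, plus strand: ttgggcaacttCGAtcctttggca
IPS1 site at chr3:3051224-3051247, plus strand: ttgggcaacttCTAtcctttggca

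Total counts were 19446419 to 51770078 in the wild-type libraries and 32216039 to 55907128 in the mutant ones. Counting error differs accordingly, with 3 counts, the limit that a count of 0 allows, equal to 0.0535 to 0.152 CPM (counts per 1e6 counts after TMM scaling). MYB84 was lower in the libraries labelled myb68 myb84 (9.92 ± 2.69 against 6.0 ± 1.14 CPM, mean ± SD, n = 3 each, edgeR adjusted p = 0.0442) and MYB68 was not, at 53.7 ± 7.42 against 67.8 ± 7.03 CPM (adjusted p = 0.0613). Xylem, phloem and endodermal marker genes were present in every library, and the summed level of 5 genes of green tissue was 2468, 2671 and 1630 CPM in WT 1, 2 and 3, so WT 3 stood below the others, against 2983 to 3464 CPM in the mutant libraries. Of the other marker lists, 2 of 5 for the endodermis and 1 of 4 for the cambium were higher, and 0 of 5 for the phloem passed. Of all tested genes, 4.66% were called higher in the mutant in the edgeR test (adjusted p under 0.05). In RNA from whole root segments, fewer cells of a type and less RNA per cell cannot be told apart.

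Levels are compared between genes as CPM per kilobase of exon (CPM per kb). In the wild type, the phosphate genes ranged from 0 counts to a mean of 216 CPM per kb. PHT1;1, the main root phosphate uptake carrier, was the highest at 216 ± 14.9 CPM per kb, above every library of the next gene. PHO2 (109 ± 11.9 CPM per kb) and PAP26, a vacuolar and secreted acid phosphatase (98.5 ± 7.34 CPM per kb), followed with overlapping libraries. PHO1, the xylem-loading exporter, stood at 67.6 ± 4.94 CPM per kb and overlapped NLA, a RING ubiquitin ligase with an SPX domain that acts on PHT1 proteins (63.4 ± 4.28 CPM per kb). Next came a group at 32.7 to 36.5 CPM per kb whose neighbours in the order overlapped, namely AT4, the vacuolar phosphate importer PHT5;1, the ferroxidase LPR2, PHR1 and the acid phosphatase PAP12. PHT1;1, PHO2, PHO1 and PAP26 together held 61.6% to 64.8% of all counts of the 38 genes in the wild type and 65.7% to 66.9% in the mutant.

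**Figure D1:**
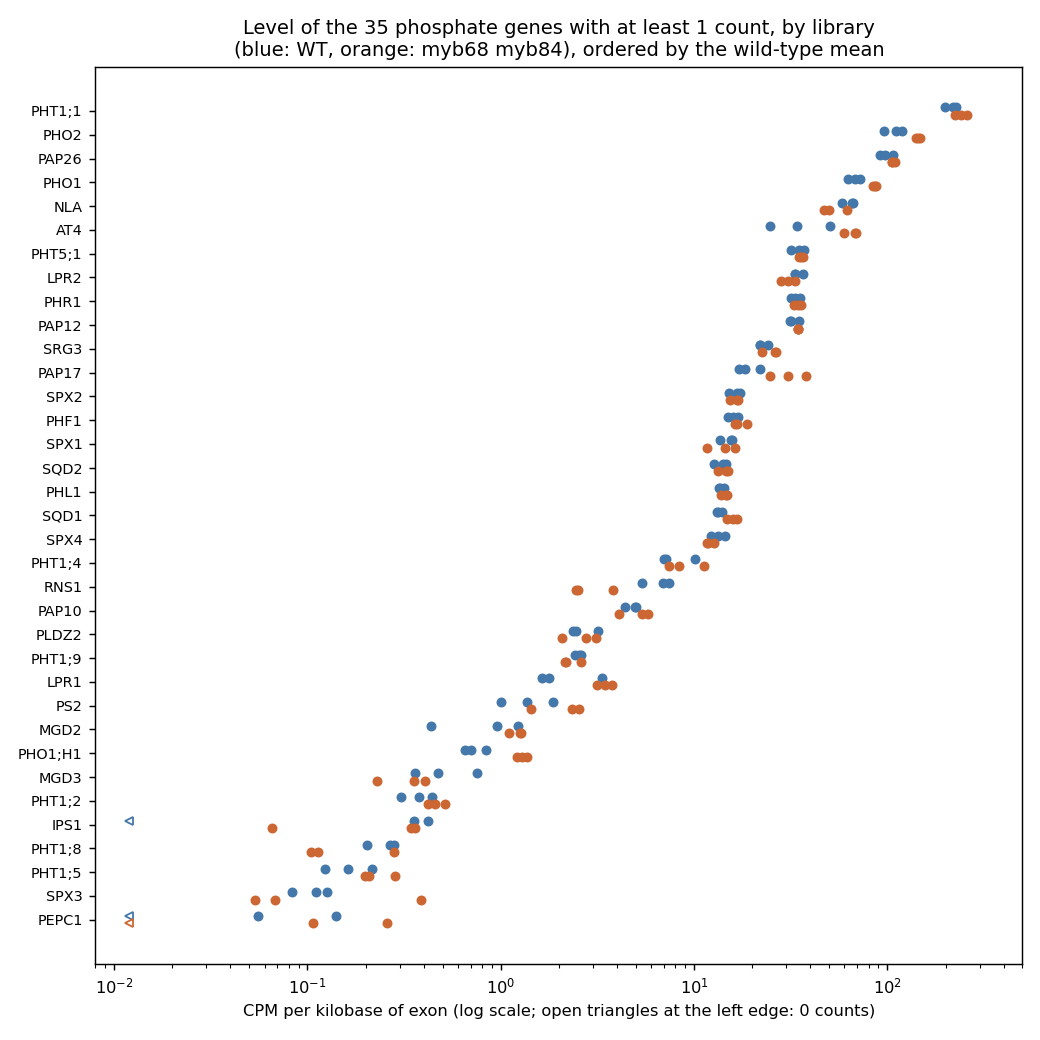
Level of the 35 phosphate genes with at least 1 count, in CPM per kb of exon on a log axis, with 1 point per library (blue, WT; orange, myb68 myb84) and genes ordered by the wild-type mean. PHT1;1 is at the top and the starvation markers IPS1, SPX3 and PEPC1 are near the bottom, where single libraries had 0 counts.

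Several genes that are classical markers of phosphate shortage were near the limit of detection. IPS1 had 10, 6 and 0 counts in WT 1, 2 and 3 and 8, 6 and 2 counts in myb68 myb84 1, 2 and 3. SPX3, an SPX repressor known to be strongly induced by starvation, had 6, 2 and 2 counts in the wild type and 2, 2 and 20 in the mutant. PEPC1, a phosphatase acting on phosphoethanolamine and phosphocholine, had 10, 2 and 0 counts against 6, 0 and 20. These genes were too low to test, and in SPX3 and PEPC1 the highest library was myb68 myb84 3, the deepest of the 6. It was also the highest in CPM, at 0.3565 for both genes, with WT 1 next at 0.1158 (SPX3) and 0.1931 (PEPC1). PHT1;3, PHT1;6 and PHT1;7 had 0 counts in all 6 libraries, which allows up to 0.152 CPM in the shallowest.

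The quasi-likelihood test of edgeR, run on all 20941 genes that passed the low-count filter and adjusted over all of them, called 4 of the 32 tested phosphate genes higher and 1 lower in myb68 myb84 at an adjusted p under 0.05, 15.6% of those tested beside 8.30% of all tested genes. The genes that rose were PHO1, its relative PHO1;H1, PHO2 and the acid phosphatase PAP17, and the gene that fell was the ribonuclease RNS1. By direction, 12.5% of the tested members were called higher beside 4.66% of all tested genes, and 3.12% called lower beside 3.65%. The other 27 tested members did not pass. Because the members were chosen with earlier results of these data known, their shares are not an unbiased comparison with all genes. At an unadjusted p under 0.05, 7 of the 32 tested members were higher and 2 of the 32 lower, beside 11.2% and 10.8% of all tested genes. The count of members called higher fell to 1 without myb68 myb84 2 and to 2 without myb68 myb84 3. The median log2 fold change was 0.10 over the tested members and -0.0026 over all tested genes, and 23 of the 32 (71.9%) were above 0, beside 49.5% of all tested genes. The libraries of the genotypes did not overlap in 7 of the 32 (21.9%), beside 27.2% of all tested genes, with the mutant higher in 6 and lower in 1 (14.1% and 13.2% of all tested genes). The share of all counts held by the 38 genes was 0.215%, 0.207% and 0.211% in WT 1, 2 and 3 and 0.237%, 0.248% and 0.246% in the mutant libraries. Without PHO1 and PHO2 it was 0.139% to 0.150% in the wild type and 0.152% to 0.161% in the mutant.

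**Figure D2:**
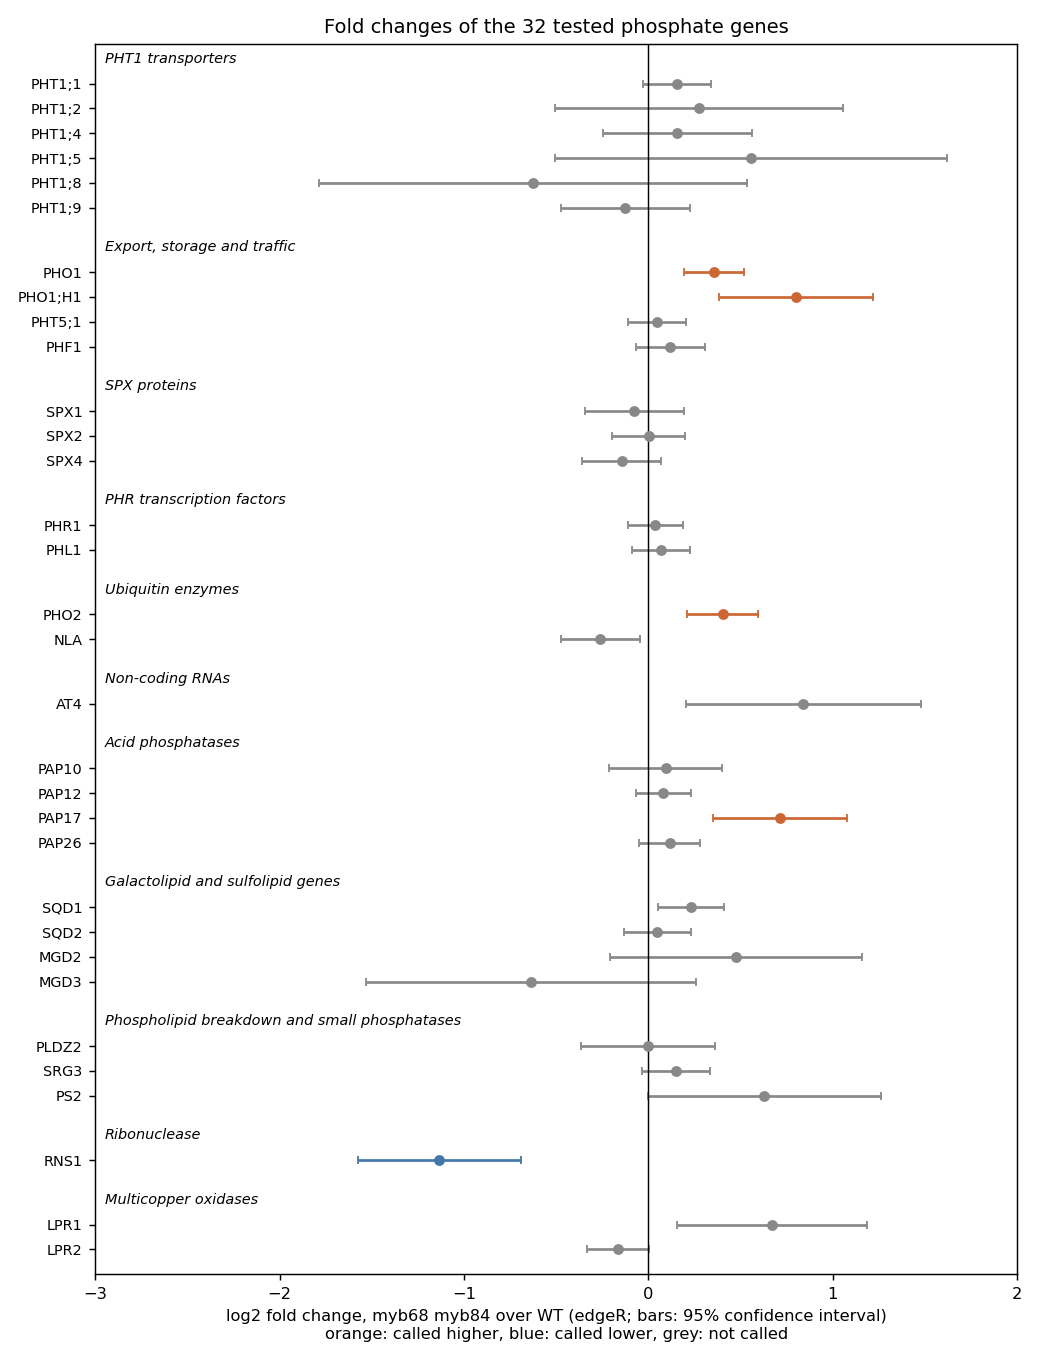
Log2 fold change of the 32 tested phosphate genes, myb68 myb84 over WT, by role, with 95% confidence intervals from the edgeR fit (orange, called higher; blue, called lower; grey, not called). PHO1, PHO1;H1, PHO2 and PAP17 lie to the right of 0 and RNS1 to the left, at -1.14, while the PHT1, SPX and PHR genes are all grey.

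Among the uptake carriers, none of the 6 tested PHT1 genes passed, and their median log2 fold change was 0.16. PHT1;1 (AT5G43350) had 459, 442 and 401 CPM in WT 1, 2 and 3 and 448, 520 and 482 CPM in myb68 myb84 1, 2 and 3. The genotypes overlapped, since myb68 myb84 1 lay below WT 1, and the log2 fold change was 0.16 (95% interval -0.029 to 0.34, adjusted p = 0.316). PHT1;4, a carrier of the root epidermis known to be induced by starvation, had 14.4, 20.2 and 13.97 CPM in the wild type and 22.5, 14.9 and 16.7 CPM in the mutant (log2 0.16, interval -0.25 to 0.56). Its highest libraries were WT 2 and myb68 myb84 1, and the genotypes overlapped. PHT1;9, a carrier that also acts in root uptake, was at 4.97 ± 0.20 against 4.53 ± 0.50 CPM, and PHT1;2, PHT1;5 and PHT1;8 were each under 1 CPM. For these low genes the intervals were wide, up to -1.79 to 0.53 for PHT1;8.

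The counts of PHT1;1 and PHT1;2 depend on how reads of near-identical copies were placed. PHT1;1, PHT1;2 and PHT1;3 lie close together on chromosome 5. The coding sequences of PHT1;1 and PHT1;2 were 97.7% identical, with 53.9% of the 50-base words of PHT1;1 also found in PHT1;2. Over the 6 libraries PHT1;1 had 105206 counts and PHT1;2 182. PHT1;3, 89.7% identical to PHT1;1 but with 1.05% of the words shared, had 0 counts. How such shared reads were counted is not stated, so the level of PHT1;1 may hold reads of PHT1;2 or lack shared ones. PHT1;4 shared no 50-base word with the other PHT1 genes.

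Marker genes of root hairs, the epidermal cells through which much phosphate enters, were higher in the mutant in 3 of 7 cases. These were EXPA7, EXPA18 and COBL9, and 4.66% of all tested genes were called higher. The summed level of the root hair markers was 199 to 273 CPM in the wild type and 306 to 379 CPM in the mutant, with none at 0. Their part in the values of the uptake carriers was not tested.

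The exporters rose. They account for the 2 calls among the 4 tested genes of export, storage and traffic, whose median log2 fold change was 0.24. Of 7 other tested genes of the PHO1 family, 0 were called higher and 1 lower, with a median of -0.048. PHO1 (AT3G23430, chromosome 3, 8387398 to 8393467, minus strand in TAIR10.1) had 203, 187 and 217 CPM in WT 1, 2 and 3 and 254, 263 and 260 CPM in myb68 myb84 1, 2 and 3. All mutant libraries were above all wild-type ones and lay within a narrow band, and the log2 fold change was 0.36 with a standard error of 0.075 (adjusted p = 0.0110), a level 128% of the wild type. PHO1 passed in every one of the 15 alternative fits, with adjusted p up to 0.0477. PHO1;H1 (AT1G68740, chromosome 1, 25812449 to 25816983), a close relative that can also load phosphate into the xylem, had 2.66, 2.09 and 2.24 CPM in the wild type and 4.12, 4.34 and 3.87 CPM in the mutant. These groups did not overlap either, although the gene was far less abundant than PHO1, at 0.731 against 67.6 CPM per kb in the wild type. The log2 fold change of PHO1;H1 was 0.80 with a standard error of 0.19 (adjusted p = 0.0220). The PHO1;H1 call ended without WT 2 (adjusted p = 0.0585), myb68 myb84 1 (0.0645), myb68 myb84 2 (0.0791) or myb68 myb84 3 (0.0598).

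The remaining genes of this role did not pass. PHT5;1 was at 131 ± 9.97 against 135 ± 2.68 CPM (log2 0.046, interval -0.11 to 0.21). PHF1, which lets PHT1 carriers leave the endoplasmic reticulum, was at 28.6 ± 1.67 against 31.1 ± 2.48 CPM (log2 0.12, interval -0.069 to 0.30). PHO1 is known to act in the pericycle and the cells next to the xylem. None of the 6 xylem markers passed the test, and their sum was 194 to 224 CPM in the wild type and 192 to 219 CPM in the mutant. Of the 6 markers of suberized cells, 5 were lower in the mutant, beside 3.65% of all tested genes. The sums of these markers were 821 to 844 against 576 to 650 CPM. Their part in the rise of PHO1 and PHO1;H1 was not tested.

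The ratio of PHO1 to PHT1;1, in CPM within a library, was 0.443, 0.423 and 0.541 for the wild-type libraries 1, 2 and 3, against 0.566, 0.506 and 0.539 for the mutant libraries 1, 2 and 3. The ratio overlapped between the genotypes through WT 3, which had the highest PHO1 and the lowest PHT1;1 level of the wild-type libraries.

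**Figure D3:**
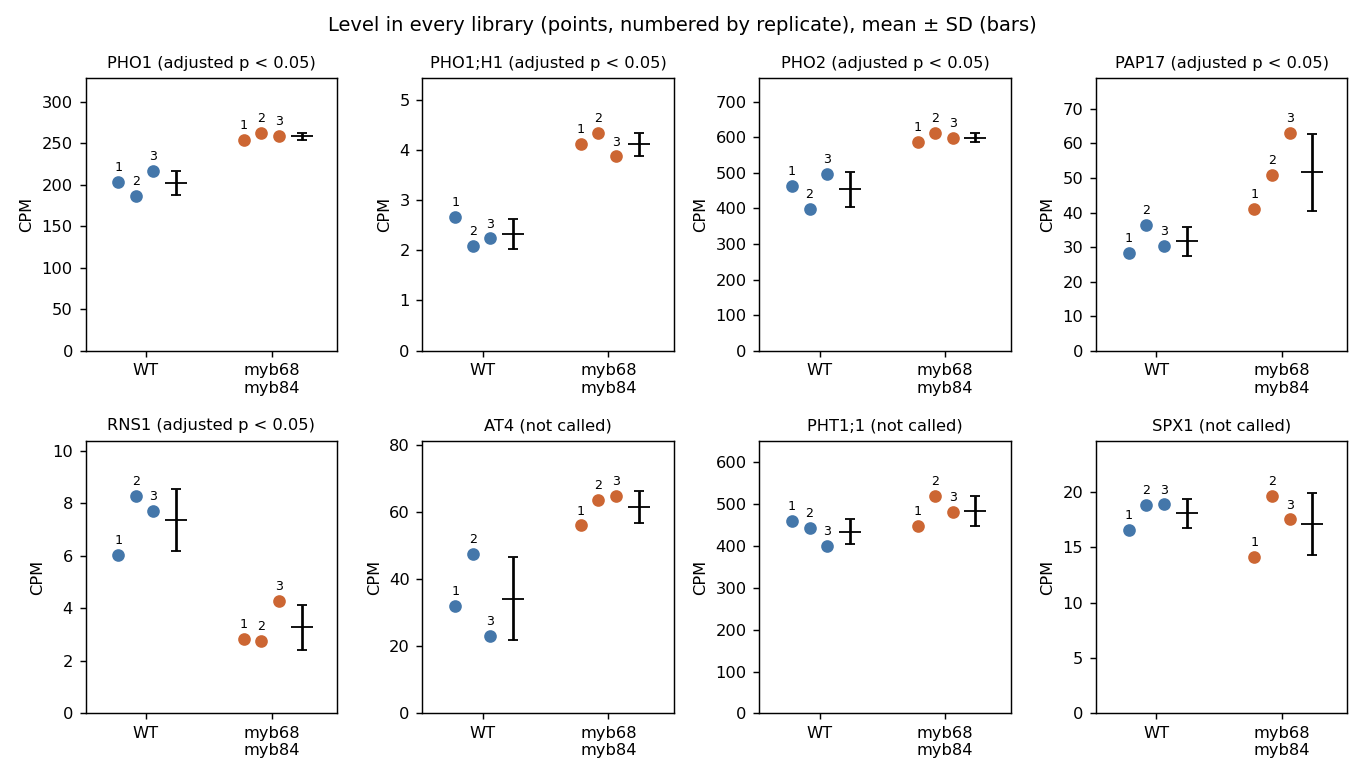
Level in CPM of the 5 called phosphate genes and of AT4, PHT1;1 and SPX1 in each library, as points numbered by replicate, with the mean and SD as bars and the y axis from 0. The mutant points lie above the wild-type points for PHO1, PHO1;H1, PHO2, PAP17 and AT4 and below them for RNS1, while PHT1;1 and SPX1 overlap.

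PHO2 rose as well. PHO2 (AT2G33770, chromosome 2, 14277558 to 14283113, minus strand), whose 5 miR399 sites are printed above, had 465, 399 and 497 CPM in the wild type and 586, 613 and 599 CPM in the mutant. As for PHO1, the lowest library was WT 2, the mutant libraries were close together, and the genotypes did not overlap. The log2 fold change was 0.40 with a standard error of 0.089 (adjusted p = 0.0142), a level 132% of the wild type. The PHO2 call ended without myb68 myb84 2 (adjusted p = 0.0562) or myb68 myb84 3 (0.0526).

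NLA, the ligase that works with PHO2 on PHT1 carriers and is itself a target of miR827, leaned the other way without passing. It had 103, 101 and 90.5 CPM in the wild type and 72.6, 95.7 and 77.6 CPM in the mutant. The genotypes overlapped because myb68 myb84 2 lay above WT 3, and the log2 fold change was -0.26 (interval -0.47 to -0.048, adjusted p = 0.132, unadjusted p = 0.0202). Without myb68 myb84 2 the NLA value passed as lower (log2 -0.39, adjusted p = 0.0271). NLA overlaps neighbours on the other strand by 76 and 49 bases of its 1547 exonic bases, and reads there cannot be assigned without strand.

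AT4 had the highest fold change of the tested members but did not pass over all genes. AT4 (AT5G03545, chromosome 5, 894582 to 895517) had 31.99, 47.5 and 23.1 CPM in WT 1, 2 and 3 and 55.9, 63.6 and 64.8 CPM in myb68 myb84 1, 2 and 3. The groups did not overlap, but the wild-type libraries were far apart, with WT 2 highest and WT 3 lowest. The log2 fold change was 0.84 with a standard error of 0.26 (adjusted p = 0.126, unadjusted p = 0.0186). AT4 passed without WT 2 (log2 1.14, adjusted p = 0.00231) and without WT 3 (log2 0.64, adjusted p = 0.0451). The miRNA precursor genes themselves gave almost no counts, with 0 for 5 of the 6 MIR399 genes, 2 counts in all for MIR399B and 15 for MIR827. Mature miRNAs were not measured, so their level is not known here.

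Among the sensor and transcription factor genes, none of the 3 tested SPX genes and neither PHR1 nor PHL1 passed, and SPX3 was too low to test. PHR1, the central transcription factor, had 59.0, 62.4 and 56.5 CPM in the wild type and 58.6, 60.9 and 63.1 CPM in the mutant (log2 0.038, interval -0.11 to 0.19). Its partner PHL1 was at 35.3 ± 0.99 against 37.0 ± 1.498 CPM (log2 0.066, interval -0.092 to 0.22). SPX1, which binds PHR1 when phosphate is ample and whose own transcript is a PHR1 target, had 16.5, 18.8 and 18.9 CPM against 14.1, 19.7 and 17.5 CPM. The wild-type libraries of SPX1 lay within the range of the mutant ones, and the interval of the log2 fold change was -0.34 to 0.19. SPX2 was at 21.1 ± 1.41 against 21.1 ± 1.04 CPM, and SPX4 was at 18.2 ± 1.51 against 16.5 ± 0.70 CPM (log2 -0.15, interval -0.36 to 0.068).

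Of the acid phosphatases, which free phosphate from organic compounds, PAP17 rose and the other 3 did not pass. PAP17 (AT3G17790, chromosome 3, 6089381 to 6091231), an enzyme induced by starvation and in ageing tissue, had 28.3, 36.3 and 30.3 CPM in the wild type and 41.0, 50.8 and 63.1 CPM in the mutant. All mutant libraries were above all wild-type ones, and they were spread more widely. The log2 fold change was 0.71 with a standard error of 0.16 (adjusted p = 0.0294), a level 164% of the wild type. The PAP17 call ended without WT 1 (adjusted p = 0.0957), WT 3 (0.0983) or myb68 myb84 2 (0.0882), with no low-count filter (0.0589) and in thinned libraries (0.0512). PAP17 overlaps AT3G17800 on the other strand by 122 of its 1658 exonic bases, and that neighbour did not pass (log2 0.19, adjusted p = 0.141).

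PAP12 and PAP26, the main phosphatases secreted by starved roots, were at 57.9 ± 3.29 against 61.2 ± 0.11 CPM and at 255 ± 19.0 against 276 ± 7.49 CPM. Their log2 fold changes were 0.079 (interval -0.070 to 0.23) and 0.12 (interval -0.050 to 0.28). PAP10, found on the root surface, was at 9.26 ± 0.65 against 9.85 ± 1.68 CPM.

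RNS1 fell. RNS1 (AT2G02990, chromosome 2, 873506 to 874886) encodes a secreted ribonuclease that salvages phosphate from RNA and is also known from wounding and senescence. It had 6.02, 8.29 and 7.72 CPM in WT 1, 2 and 3 and 2.82, 2.75 and 4.28 CPM in myb68 myb84 1, 2 and 3. Every mutant library was below every wild-type one, and the log2 fold change was -1.14 with a standard error of 0.20 (adjusted p = 0.00406), a level 45.5% of the wild type. RNS1 passed in all 15 alternative fits, with adjusted p up to 0.0237. Of its relatives, RNS2, a vacuolar ribonuclease that turns over ribosomal RNA, was at 82.3 ± 4.52 against 82.2 ± 3.77 CPM (log2 -0.0023, interval -0.16 to 0.15), and RNS3 was at 19.8 ± 2.55 against 17.1 ± 0.50 CPM (adjusted p = 0.270).

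None of the 7 tested genes of lipid remodelling, phospholipid breakdown and small phosphatases passed. SQD1, which makes the sulfolipid head group donor, came closest, with 25.2, 26.6 and 25.3 CPM in the wild type and 30.3, 28.1 and 31.8 CPM in the mutant. Its groups did not overlap, and the log2 fold change was 0.23 with a standard error of 0.082 (adjusted p = 0.109, unadjusted p = 0.0145). SQD2, the next enzyme of that path, was at 31.5 ± 2.23 against 32.6 ± 2.06 CPM (log2 0.047, interval -0.13 to 0.23). MGD2 and MGD3, the galactolipid synthases used under starvation, were low, at 1.67 ± 0.76 against 2.31 ± 0.18 CPM and at 1.02 ± 0.39 against 0.638 ± 0.18 CPM. Their fold changes had opposite signs, 0.48 and -0.64, and both intervals included 0.

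PLDZ2, a phospholipase D that clears phospholipids in starved roots, was at 9.42 ± 1.62 against 9.33 ± 1.89 CPM (log2 -0.0019, interval -0.37 to 0.36). SRG3, a glycerophosphodiester phosphodiesterase, was at 34.5 ± 1.88 against 38.2 ± 3.41 CPM (log2 0.15, interval -0.036 to 0.33). SRG3 shares 44.7% of its exonic bases with a gene on the other strand, AT3G02030, so its level is uncertain. PS2, annotated as an inorganic pyrophosphatase, had 1.31, 1.79 and 2.44 CPM in the wild type and 3.04, 1.87 and 3.32 CPM in the mutant, and did not pass (log2 0.63, adjusted p = 0.230).

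LPR1 and LPR2 encode multicopper ferroxidases that stop root tip growth on low phosphate. LPR1 had 3.75, 4.07 and 7.62 CPM in WT 1, 2 and 3 and 7.95, 7.21 and 8.63 CPM in myb68 myb84 1, 2 and 3. WT 3 lay within the mutant range and apart from the other wild-type libraries, and the gene did not pass (log2 0.67, standard error 0.23, adjusted p = 0.114, unadjusted p = 0.0157). Without WT 3 LPR1 passed (log2 1.03, adjusted p = 0.00135), as it did in limma-voom (0.0189). LPR2 was at 85.3 ± 4.75 against 76.0 ± 6.40 CPM (log2 -0.17, interval -0.34 to 0.0042).

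PHR1 binds the motif GNATATNC, known as P1BS, which reads the same on both strands. In the 1000 bases upstream of the annotated start, 22 of the 38 members held the motif (57.9%), beside 20.1% of all annotated genes. In the nearest 250 bases 8 of 38 did (21.1%), beside 5.43%. The members were chosen for roles in the response that PHR1 switches on, so these shares are not independent of that choice. Of the called genes, PHO2 held 1 copy, 526 bases upstream, and PHO1, PHO1;H1, PAP17 and RNS1 held none in 1000 bases. Among the 16 tested members with the motif, 1 was called higher and 0 lower, with a median log2 fold change of 0.13. Among the 16 tested members without it, 3 were called higher and 1 lower, with a median of 0.086. Over all tested genes 8.30% were called, the difference between the members with and without the motif was not tested, and the called genes are only 5. A match to these letters is not a binding site, and its absence from a window says nothing about the factor.

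The 250 bases upstream of AT4 and of PAP17 are shown, from TAIR10.1, as a starvation RNA that holds the motif and a called phosphatase that does not. The P1BS copy of AT4 begins 26 bases before the annotated start and is in capitals, and the PAP17 stretch holds none.
AT4 at chr5:894332-894581, plus strand: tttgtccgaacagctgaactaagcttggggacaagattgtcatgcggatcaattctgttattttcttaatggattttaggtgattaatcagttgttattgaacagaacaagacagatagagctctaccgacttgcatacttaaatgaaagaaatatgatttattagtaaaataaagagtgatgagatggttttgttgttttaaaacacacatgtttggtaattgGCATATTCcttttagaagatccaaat
PAP17 at chr3:6089131-6089380, plus strand: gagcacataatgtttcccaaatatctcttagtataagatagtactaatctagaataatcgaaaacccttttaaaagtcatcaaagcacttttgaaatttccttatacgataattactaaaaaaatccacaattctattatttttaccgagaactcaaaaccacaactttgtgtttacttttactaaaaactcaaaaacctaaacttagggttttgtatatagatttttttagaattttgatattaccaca

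Other genes of phosphate biology were counted from a separate list of 65, also chosen with earlier results known, of which 50 could be tested. In myb68 myb84 5 were higher and 4 lower, 10% and 8% of those tested, beside 4.66% and 3.65% of all tested genes, and 41 did not pass. The median log2 fold change was 0.047.

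Of the 11 tested phosphate carriers of organelles and the vacuole, 3 rose, 1 fell and 7 did not pass, among them PHT4;3 (log2 -0.059) and PHT4;5 (log2 0.19). PHT2;1, the phosphate carrier of the chloroplast envelope, had 21.7, 23.4 and 25.5 CPM in the wild type and 42.5, 38.8 and 37.1 CPM in the mutant (log2 0.75, SE 0.088, adjusted p = 0.000224). PHT4;1, a thylakoid phosphate carrier, had 5.79, 5.82 and 7.16 CPM against 12.3, 12.7 and 12.1 CPM (log2 0.99, SE 0.13, adjusted p = 0.000420). PHT4;4, a chloroplast carrier known to move ascorbate, rose from 11.1 ± 0.29 to 14.6 ± 0.26 CPM (adjusted p = 0.0240). In all 3 the mutant libraries lay above the wild-type ones.

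PHT4;2, the carrier of root plastids, fell instead. It had 11.3, 10.4 and 8.64 CPM in the wild type and 4.17, 3.49 and 4.53 CPM in the mutant (log2 -1.31, SE 0.16, adjusted p = 0.000232), the largest fall of the list. Beside the rise of the chloroplast carriers, 2 of the 5 green tissue markers, RBCS1A and LHCB3, were higher in the mutant and none was at 0. Of all tested genes, 4.66% were called higher. The part of green tissue in the values of the carriers was not tested. PHT4;1 and PHT4;4 overlap annotated neighbours, and the PHT4;4 call ended without WT 1 (adjusted p = 0.0956), without any 1 mutant library (0.0567 to 0.0966) and in thinned libraries (0.0544).

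Of the remaining called genes of that list, G3Pp1, of the glycerol-3-phosphate permease family, rose. It had 24.6, 24.9 and 23.1 CPM in the wild type and 46.7, 46.3 and 51.0 CPM in the mutant (log2 0.99, SE 0.077, adjusted p = 8e-06). ZAT6, a zinc finger factor that affects root growth and phosphate levels, rose from 53.7 ± 2.76 to 69.7 ± 3.61 CPM (adjusted p = 0.00597).

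GDPD2, a relative of SRG3 that breaks down glycerophosphodiesters, had 172, 176 and 174 CPM in the wild type and 92.3, 105 and 87.1 CPM in the mutant (log2 -0.88, SE 0.078, adjusted p = 2.3e-05). GDPD2 and SRG3 thus had fold changes of opposite sign, that of SRG3 without passing. PHO1;H3, a PHO1 relative known from the response to zinc shortage, was at 54.4 ± 5.82 CPM in the wild type and fell to 34.7 ± 3.62 CPM (log2 -0.65, SE 0.097, adjusted p = 0.00121), while PHO1 and PHO1;H1 rose. ALMT1, the malate channel that acts with LPR1 in root tips on low phosphate, was at 50.1 ± 6.10 CPM in the wild type and fell to 33.2 ± 6.87 CPM, with a log2 fold change of -0.59 (SE 0.15, adjusted p = 0.0497). The ALMT1 call was at the threshold and ended without WT 1 (adjusted p = 0.137), WT 2 (0.0610), WT 3 (0.127) or myb68 myb84 1 (0.0941) and with no low-count filter (0.0926).

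**Figure D4:**
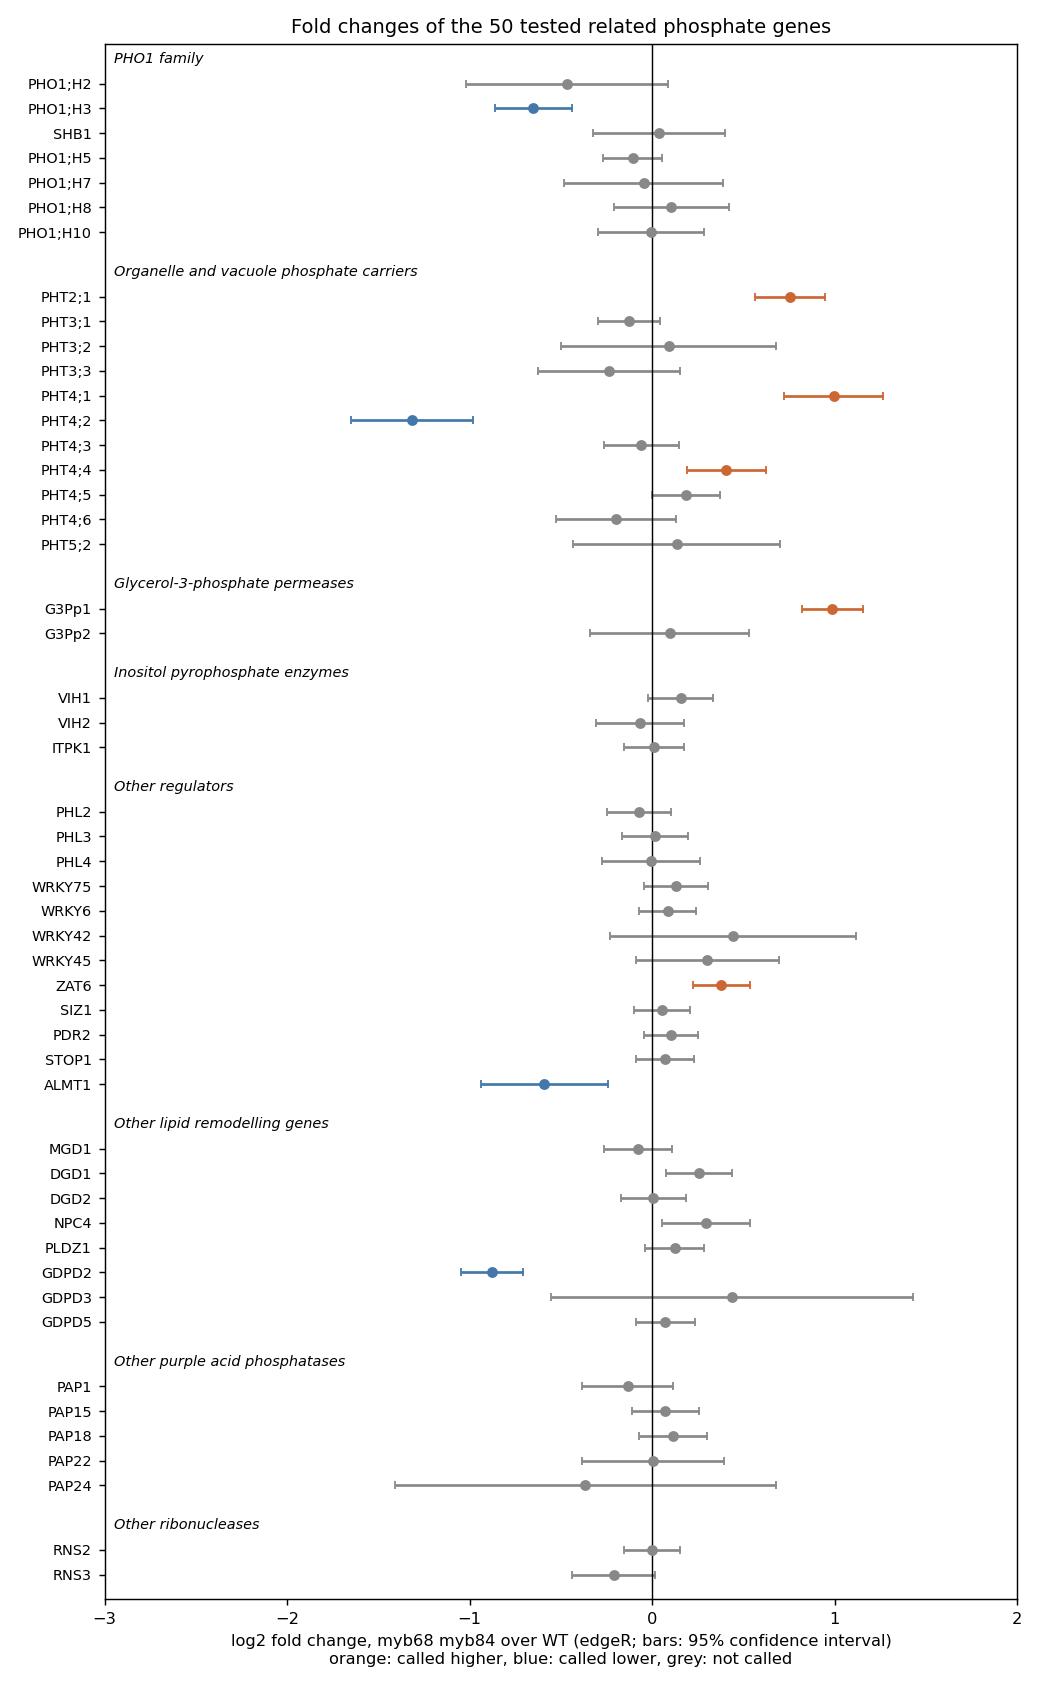
Log2 fold change of the 50 tested related phosphate genes, myb68 myb84 over WT, by role, with 95% confidence intervals from the edgeR fit (orange, called higher; blue, called lower; grey, not called). PHT2;1, PHT4;1, PHT4;4, G3Pp1 and ZAT6 lie to the right of 0, and PHO1;H3, PHT4;2, ALMT1 and GDPD2 to the left.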

How the data were processed

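The authors deposited raw counts per gene, without normalization, in a separate file for each of 3 WT and 3 myb68 myb84 libraries. The submitters' processing notes list TAIR10 as build and, among the tools, Trim Galore and HISAT, with featureCounts for counting and DESeq2. Versions, gene models, strandedness and the handling of multiply matching reads are not stated. Of the deposited counts from 1 to 20, 78.2% were even, as when both mates of a read pair are counted. If so, the counts overstate the number of fragments, and limits from counts are too narrow. Limits cover counting error only.

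Positions came from TAIR10.1, which holds 32548 of the identifiers and lacks 285. The main test was edgeR 4.0.16 in R 4.3.3 (quasi-likelihood, robust, TMM scaling, filterByExpr with a minimum count of 10), with genotype as the only term and Benjamini-Hochberg adjustment over all tested genes. Log2 fold changes are myb68 myb84 over WT, and each SE was derived from the fold change and its F statistic. Levels are CPM, as mean ± SD over 3 libraries, and p-values measure the spread between pools of plants. Libraries of 1 genotype differed by more than sampling noise (chi-square per degree of freedom of at least 10.7).

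Alternatives were DESeq2 1.42.0, limma-voom (limma 3.58.1), other scalings, other filters, thinning to 19446419 counts, the replicate number as a block and each library left out, and, after seeing the data, halved counts. The 38 members, the lists of related genes and of markers and the rule for named genes were chosen with earlier results of these data known. The rule names every member, with values by library for those called. It also covers the highest member of each role group, members with an unadjusted p under 0.05, and the called genes of the related list. RNS2, RNS3, the MIR genes and, with values by library, PHT1;1, PHT1;4, PHR1 and SPX1 were added after their values were seen. miR399 sites were searched with at most 4 mismatches, a G:U pair counting 0.5.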

Additional observations from a re-analysis of the deposited data

How the results depend on the processing

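The numbers of members called higher and lower, 4 and 1, stayed within 1.5 times of those values in each alternative scaling, filter and tool, in thinned libraries, with halved counts and with the replicate block. With a library left out, 1 to 5 members were higher and 1 to 2 lower, 1 higher and 2 lower without myb68 myb84 2 and 2 higher without myb68 myb84 3. Over all genes, 1024 to 1670 were called in those fits, against 1739, the fewest without WT 1 (1024), myb68 myb84 2 (1062) and myb68 myb84 3 (1068). In those fits the related list had 4 to 5 genes higher and 3 to 4 lower, against 5 and 4. Same-numbered libraries of the genotypes deviated together only weakly (r = 0.0060, 0.044 and 0.11 for numbers 1, 2 and 3). With so few libraries, these values cannot tell whether the number pairs them. With the replicate block 5 members were higher and 1 lower and 2069 genes were called in all, with 6 related genes higher and 4 lower, the added member being LPR1 (log2 0.70, adjusted p = 0.0301). Sign changes were confined, in the fits run, to members that no fit called. SPX2 was at -0.020 with upper-quartile scaling, -0.00084 with the stricter filter and -0.029 in thinned libraries. PLDZ2 was at 0.0026 with no filter, 0.025 in limma-voom, 0.031 in thinned libraries and 0.0048 with halved counts. With a library left out, SPX2 ran from -0.048 to 0.041, PLDZ2 from -0.13 to 0.15, PHT1;4 from -0.030 to 0.35, PHT5;1 from -0.0084 to 0.099, SPX1 from -0.18 to 0.046, PAP10 from -0.0077 to 0.22 and SQD2 from -0.0038 to 0.098. The cause was not tested. Depth limits IPS1, SPX3, PEPC1 and the low PHT1 genes, for which a difference was not detectable.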
